A study of Mus musculus with 24 samples.

Results

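SR proteins and heterogeneous nuclear ribonucleoproteins (hnRNPs) were followed here as a family of splicing regulators. The members were all protein-coding genes whose symbol was Srsf followed by a number or began with Hnrnp, which gave 31 genes, 11 Srsf and 20 Hnrnp, out of 48709 genes counted and 22018 protein-coding genes. Their read counts were examined in cerebral cortex and blood of newborn C57BL/6J mice, whose dams had breathed nano-sized particulate matter (nPM) or filtered air during pregnancy. nPM is the finest fraction of urban traffic-derived particles, re-aerosolized for the exposure. From gestational day 2 until birth, exposure took place on 3 days of each week and lasted 5 h. The labels give the concentration as 300 mg/m3, whereas the methods of the study give the same figure in micrograms. The methods also name the substrain as C57BL/6NJ.

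The 24 RNA-seq libraries held 3 pups for each combination of tissue, sex and exposure. Cortex and blood were collected at an age that the labels give as 3 to 5 days and the methods as day 5. By the methods, the pups of one sex and exposure were drawn from different litters. The study also describes both tissues as taken from the same animals. The labels do not say which pups of different groups were littermates or which cortex and blood libraries came from one pup. The tissue comparison was therefore unpaired, and p-values measure the spread between these libraries. Cortex libraries were in sequencing lanes 2 and 3 and blood libraries in lanes 1 and 3, so tissue and lane are partly confounded. RNA integrity was also lower in every control blood library than in any control cortex library. The groups are named below as control (filtered air) and nPM, and libraries by their labels, V1 to V24. One control female blood library, V2, stood apart from the other blood libraries and was left out of the blood comparisons, leaving 5 control and 6 nPM blood libraries against 6 and 6 in cortex. The libraries held 13595647 to 33804371 counts. All 9 neuronal markers examined were detected in every cortex library, with a summed level of 3160 to 3556 CPM (library counts scaled to 1e+06) against 2.05 to 13.6 CPM in blood without V2. The summed level of the 8 erythroid markers was 695528 to 791374 CPM in these blood libraries, against 252 to 701 CPM in cortex.

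SR proteins carry RNA-recognition domains and a tail rich in arginine and serine, bind exonic enhancers and recruit the spliceosome, and they shuttle to the cytoplasm in RNA export and translation. hnRNPs coat nascent transcripts and often repress the exons or introns they bind, so that the balance of both families sets many alternative splicing choices in the developing brain. CLK and SRPK kinases phosphorylate the serine-rich tail, and many SR and hnRNP genes are known to limit their own level through transcripts that undergo nonsense-mediated decay. In the Gencode annotation (release M21), 19 of the 31 members had at least 1 transcript annotated for nonsense-mediated decay (61.3%), against 20.5% of 21901 genes with a protein-coding transcript. The share was 9 of 11 for Srsf genes and 10 of 20 for Hnrnp genes. A retained-intron transcript was annotated for 22 of 31 members (71.0%), against 41.6% of these genes. The deposited counts were summed per gene, so they do not separate productive from decaying or intron-retaining transcripts.

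The promoters of 4 members are shown because the results turn on these genes: Srsf5 and Hnrnpab were the members called in female cortex, Srsf12 was nearly absent from blood, and Hnrnpul1 had the largest tissue difference of the tested members after TMM scaling (which sets the bulk of genes level between libraries), though the smallest ratio on plain library totals. Each sequence runs 300 bases around the RefSeq transcription start (build GRCm38.p6, the mm10 assembly), 5′ to 3′ on the strand of the gene. Capitals mark matches, on either strand, to 6 short motifs. The cyclic-AMP response element (CRE) was searched as TGACGTCA, and the ETS site of that transcription factor family as CCGGAAGT. The GC box, bound by Sp1, was searched as GGGCGG. The box bound by the factor NF-Y was searched as CCAAT, the box bound by TBP near many start sites as TATAAA, and the site of the erythroid and lymphoid GATA factors as AGATAA. In Srsf5 a GC box and an ETS match overlap. The Srsf12 window begins inside the gene as counted, downstream of its start in the gene map, while the other windows span that start. The sequences, in this order, lie at chr12:80945249-80945548 (plus strand), chr11:51606832-51607131 (minus strand), chr4:33209022-33209321 (plus strand) and chr7:25754710-25755009 (minus strand).
Srsf5: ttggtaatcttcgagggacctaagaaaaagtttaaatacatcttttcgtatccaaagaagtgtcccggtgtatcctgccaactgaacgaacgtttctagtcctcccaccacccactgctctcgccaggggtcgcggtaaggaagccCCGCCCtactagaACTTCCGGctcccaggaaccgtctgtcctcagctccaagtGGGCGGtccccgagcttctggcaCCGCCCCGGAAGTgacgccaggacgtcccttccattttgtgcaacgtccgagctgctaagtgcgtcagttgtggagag
Hnrnpab: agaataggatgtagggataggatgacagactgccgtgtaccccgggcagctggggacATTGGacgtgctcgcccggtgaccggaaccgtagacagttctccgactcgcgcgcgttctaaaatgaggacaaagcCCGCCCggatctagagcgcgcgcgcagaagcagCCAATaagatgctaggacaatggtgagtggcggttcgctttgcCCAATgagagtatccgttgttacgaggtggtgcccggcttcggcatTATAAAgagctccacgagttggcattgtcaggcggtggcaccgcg
Srsf12: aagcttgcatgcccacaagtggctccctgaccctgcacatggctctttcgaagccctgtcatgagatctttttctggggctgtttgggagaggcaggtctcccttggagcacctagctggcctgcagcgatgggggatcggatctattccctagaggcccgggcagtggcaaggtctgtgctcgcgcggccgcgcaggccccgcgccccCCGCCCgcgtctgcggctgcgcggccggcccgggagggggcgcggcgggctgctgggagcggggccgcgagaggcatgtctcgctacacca
Hnrnpul1: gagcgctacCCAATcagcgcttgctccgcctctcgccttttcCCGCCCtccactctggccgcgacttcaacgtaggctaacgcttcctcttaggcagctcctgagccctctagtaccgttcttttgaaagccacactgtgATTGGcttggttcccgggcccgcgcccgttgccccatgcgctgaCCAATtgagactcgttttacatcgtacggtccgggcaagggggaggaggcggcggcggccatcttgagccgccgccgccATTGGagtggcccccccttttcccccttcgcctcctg
The Srsf5 window held 3 GC boxes and 2 ETS matches, the Hnrnpab window 1 GC box, 3 CCAAT boxes and 1 TATA box, the Hnrnpul1 window 1 GC box and 4 CCAAT boxes, and the Srsf12 window 1 GC box. Promoters were listed for 29 members, with Hnrnpll and Hnrnpul2 missing. These member promoters held a median of 31 CpG dinucleotides and 68.3% G and C, against 7 and 52.7% over 27025 promoters. A GC box was present in 23 of 29 member promoters (79.3%, against 35.9% of all), a CCAAT box in 16 (55.2%, against 37.9%), an ETS match in 4 (13.8%, against 4%), a TATA box in 4 (13.8%, against 14.2%), a GATA match in 2 (6.90%, against 11.4%) and a CRE in 0 (against 1.88%).

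The members made up 0.456% to 0.514% of all counts in cortex and 0.0244% to 0.0401% in blood without V2. Divided by exonic length, the level of Hnrnpa1, a repressor of exon inclusion, was the highest in control cortex, at 174 ± 13.99 CPM per kilobase (SD, n = 6; range 156 to 193). Hnrnpk, which binds C-rich RNA, followed with 75.4 ± 3.83 (range 71.3 to 81.7), and Hnrnpab, which binds RNAs transported in neurons, with 59.5 ± 5.56 (range 55.9 to 70.7). These 3 levels did not overlap between genes, and the 3 genes gave 28.6% of the summed per-length level of the members. Hnrnpab did not stand apart from the next gene, Hnrnpc, at 58.9 ± 2.90. The lowest cortex levels per length were those of Hnrnph3 (6.22 ± 0.636), Hnrnpr (6.97 ± 0.440) and Hnrnpll (7.03 ± 0.552). The exonic length of Hnrnpr covers 22199 bases, the longest of the members, and its level in CPM without division was 155 ± 9.76. In the cortex order, 25 of 30 neighbouring genes overlapped in their library ranges.

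In control blood without V2 the order was led by Hnrnpc, which binds uridine tracts, at 9.11 ± 0.913 CPM per kilobase (SD, n = 5), then Hnrnpk at 6.96 ± 1.30 and Hnrnpa1 at 4.77 ± 1.83. The lowest were Srsf12, Hnrnpll (0.268 ± 0.0765) and Hnrnpr (0.299 ± 0.0636). Hnrnpll is known for the splicing of the lymphocyte surface protein CD45. In blood, 29 of 30 neighbours overlapped. The Srsf genes together gave 28.5% of the summed per-length level in cortex and 23.5% in blood.

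Srsf12 (chr4:33208991-33233340, plus strand), an SR-related protein that opposes the activity of other SR proteins, had 979 to 1450 counts in each cortex library. In the 11 blood libraries it had 0 to 9 counts, with 6 libraries at 0, which allows up to 3 counts or 0.137 to 0.221 CPM in a library. This limit covers counting error only. It was the single member that failed the filter of at least 1 count in every library, so that 31 members were tested in cortex and 30 in blood.

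**Figure D1:**
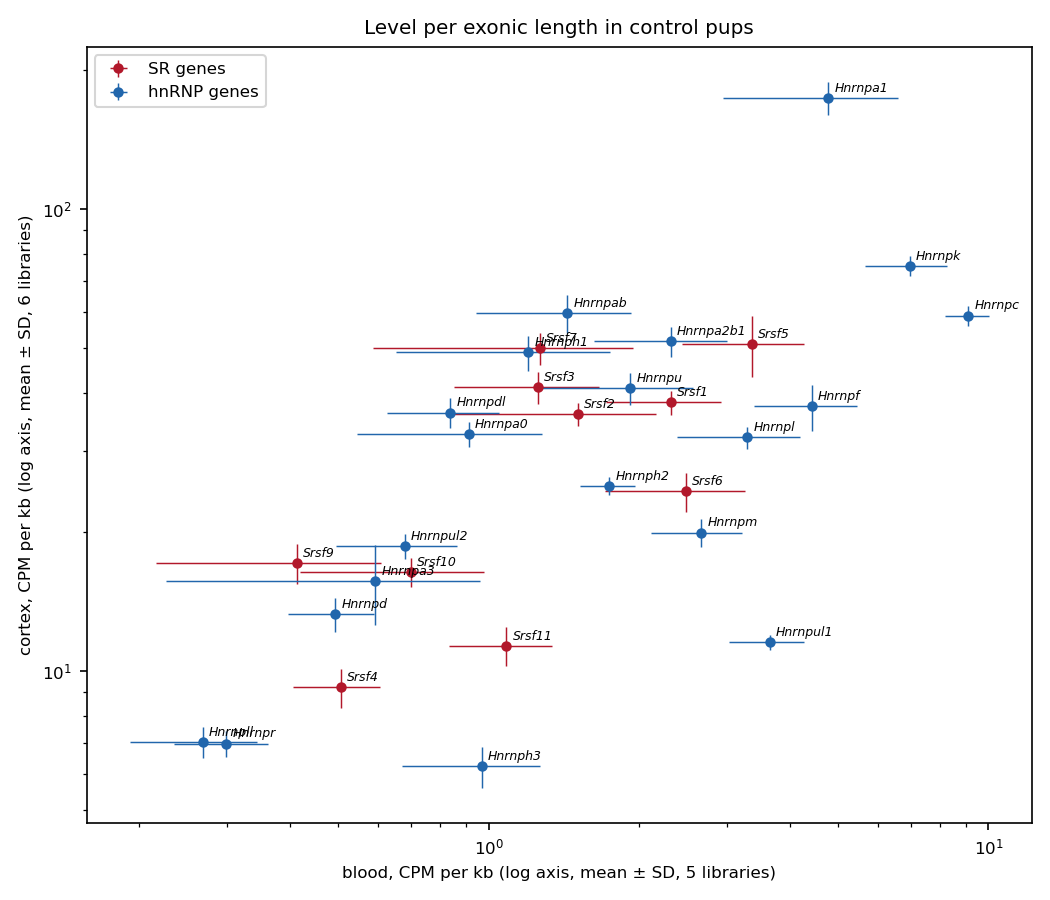
Level of 30 members in blood (x axis, 5 control libraries) and cortex (y axis, 6 control libraries) in CPM per kilobase of exonic length, both axes on a log scale, with points at the mean and bars for SD. Hnrnpa1 sits highest in cortex at 174 and Hnrnpc furthest right in blood at 9.11. Srsf12 is not drawn because it had 0 counts in several blood libraries.

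The spread of the members was taken over all 12 cortex libraries, without other genes of similar counts beside it. The coefficient of variation of the TMM-scaled CPM had a median of 5.30% over the 31 members and ranged from 3.77% for Hnrnpc to 26.0% for Hnrnpa3. Hnrnpf (13.9%) and Srsf5 (11.2%) came next to Hnrnpa3. In the 11 blood libraries, where the counts were lower, the median over 30 members was 21.5%, with a range of 11.3% to 35.8%.

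The clearest difference with nPM was in female cortex, where Srsf5 was lower and Hnrnpab higher in nPM pups than in controls. Srsf5 (chr12:80945504-80950507, plus strand) encodes a constitutive SR splicing factor. Its TMM-scaled CPM was 219.7, 234 and 230.0 in the 3 control female cortex libraries and 174, 182 and 192 in the nPM female libraries. Every control value lay above every nPM value. By the edgeR quasi-likelihood test with Benjamini-Hochberg adjustment, the difference was -0.32 ± 0.05 on the log2 scale (± SE throughout; adjusted p = 0.0162). Hnrnpab (chr11:51600100-51606847, minus strand) had 154, 155 and 162 CPM in the control female libraries and 177, 189.6 and 190.2 in the nPM female libraries. Here every nPM value lay above every control value, with a log2 difference of 0.23 ± 0.05 (adjusted p = 0.0363, edgeR). Srsf11, which promotes the inclusion of neuronal microexons, had 98.7, 104 and 105 CPM in controls and 90.7, 92.2 and 93.2 in nPM. Its groups did not overlap either, but the difference missed the adjusted threshold (log2 fold change -0.17 ± 0.05, adjusted p = 0.101, edgeR).

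Over the family, 2 of 31 members passed an adjusted p of 0.05 in female cortex, 1 in each direction, where 1.11% of 21731 genes tested passed. At an unadjusted p under 0.05 there were 8 members against 15.4% of genes. The 8 were Srsf5, Srsf11, Srsf6 (-0.13 ± 0.05) and Srsf7 (-0.10 ± 0.04), which were lower in nPM, and Hnrnpab, Hnrnpa1 (0.19 ± 0.07), Hnrnph2 (0.12 ± 0.04) and Hnrnpul1 (0.11 ± 0.05), which were higher. The members lower at this level were thus all Srsf genes and those higher all Hnrnp genes. Of the 11 Srsf genes, 8 had a log2 fold change below 0 and the median was -0.05, while 11 of 20 Hnrnp genes were above 0 with a median of 0.01, beside -0.00 over all genes tested. The 3 control and 3 nPM libraries did not overlap for 9 members, beside 21.1% of all genes. These 9 were the 8 named above without Hnrnpa1, whose groups overlapped, and with Srsf12 and Hnrnpu. Srsf12 was higher in nPM (0.12 ± 0.06) and Hnrnpu lower (-0.09 ± 0.05), so both ran against the split by family at the unadjusted level. With 3 libraries against 3, a two-sided exact permutation test of a single gene cannot give a p below 0.1, and it gave 0.1 for each of these 9.

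**Figure D2:**
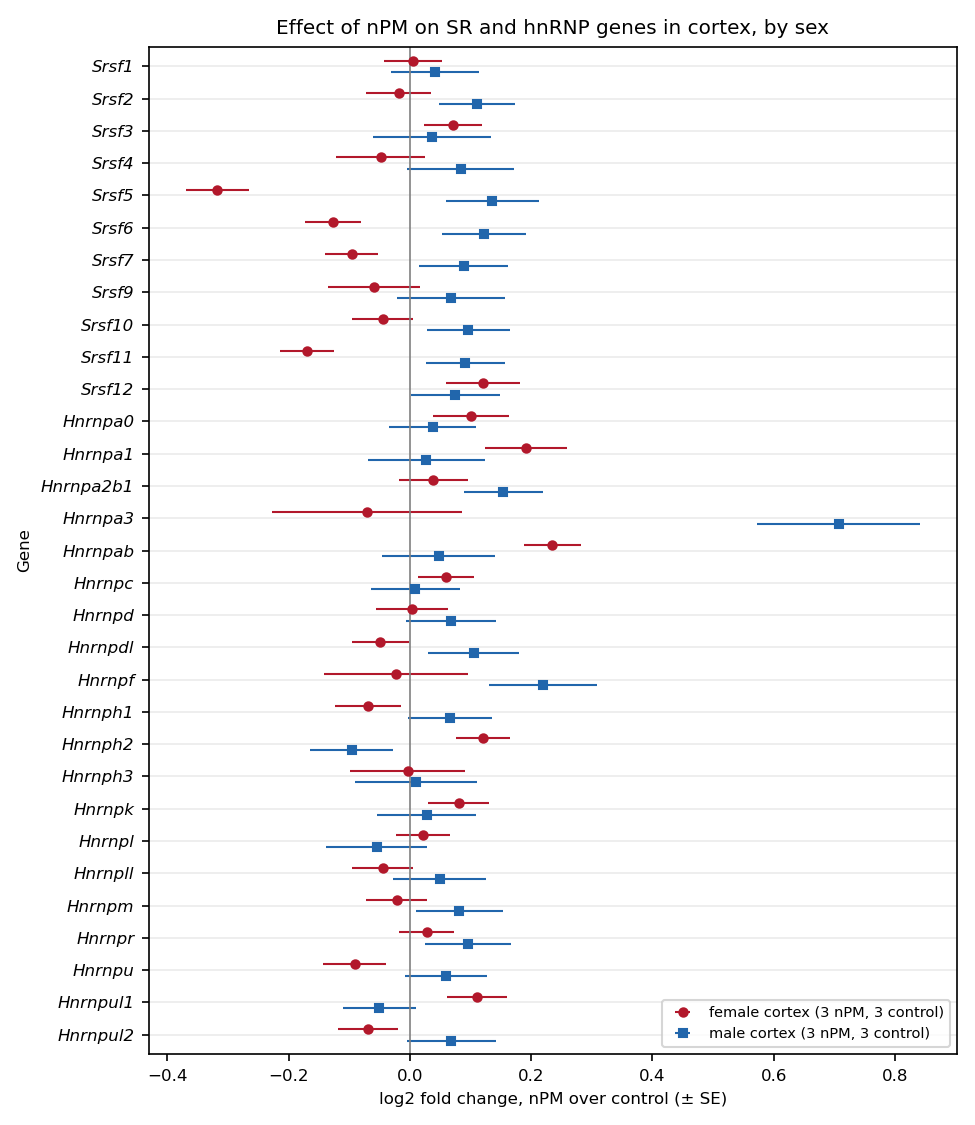
Log2 fold change of nPM over control for each of the 31 members (y axis) in female cortex (circles) and male cortex (squares), with bars for the standard error and 3 libraries per group. Srsf5 lies furthest left in females at -0.32 and Hnrnpa3 furthest right in males at 0.71.

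Srsf5 has 1 near-identical copy in the annotation, which held 201 to 338 counts in a cortex library beside 4318 to 7317 on Srsf5. Hnrnpab has no such copy, but it overlaps Phykpl on the opposite strand. Near-identical copies were found for 11 of the 31 members, Hnrnpa1 (9 copies) among them.

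Both calls were lost when some of the 6 libraries were left out. Without V11, V12 or V19 the adjusted p of Srsf5 rose to 0.119, 0.0819 and 0.101, and the call of Hnrnpab was lost without any one of V10, V11, V12, V19 or V20 (adjusted p = 0.106 to 0.206). When female and male cortex were fitted together, so that the spread was estimated over 12 libraries, Srsf5 changed by -0.32 ± 0.06 (adjusted p = 0.180) and Hnrnpab by 0.23 ± 0.07 (adjusted p = 0.247). By sequencing lane, the log2 difference of Srsf5 was -0.35 in lane 2 (2 against 2 libraries) and -0.26 in lane 3 (1 against 1), and that of Hnrnpab was 0.25 and 0.23.

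Some other measures also separated control from nPM in the same 6 female libraries, and others overlapped. Genes of the annotation type TEC, loci of unsettled status, took 0.369% to 0.406% of counts in control and 0.273% to 0.294% in nPM libraries. Long intergenic RNAs took 1.35% to 1.41% and 0.992% to 1.19%. Malat1, a nuclear RNA of the splicing speckles, had 4745 to 5150 CPM in controls and 3400 to 3727 in nPM. The neuronal markers summed to 3160 to 3186 CPM in controls and 3277 to 3407 in nPM, with all 9 markers detected in every library. The glial list summed to 785 to 883 and 831 to 860, the dividing-cell list to 83.9 to 94.5 and 91.4 to 99.8, the erythroid list to 288 to 635 and 328 to 701, and the list for tissues next to the cortex to 376 to 422 and 418 to 538. The ranges of the glial, dividing-cell, erythroid and adjacent-tissue lists overlapped between exposures, and each list was detected in full. RNA integrity also overlapped, at 9.4 to 9.8 and 9.5 to 9.9. The part of these measures in the Srsf5 and Hnrnpab differences was not tested. In bulk tissue, fewer cells of a type and less RNA per cell cannot be told apart.

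In male cortex no member passed the adjusted threshold, and 0% of 21670 genes did. At an unadjusted p under 0.05 there were 3 members, beside 4.51% of genes. These were Hnrnpa3 (log2 fold change 0.71 ± 0.13), Hnrnpf (0.22 ± 0.09) and Hnrnpa2b1 (0.15 ± 0.07), all higher in nPM and each with an adjusted p of 0.962 (edgeR). All 11 Srsf genes and 17 of 20 Hnrnp genes had a fitted value above 0, with a median of 0.07 over the 31 members beside 0.00 over all genes. The fitted values include RNA integrity. By plain group means Srsf3 (-0.003), Srsf4 (-0.02), Hnrnpa0 (-0.02), Hnrnpab (-0.01), Hnrnph1 (-0.03) and Hnrnph3 (-0.08) turned below 0, and none turned the other way. For Hnrnpa3 the plain means gave 0.52. The libraries did not overlap for 2 members, Hnrnpa3 and Hnrnpul1, beside 9.2% of genes.

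Hnrnpa3 (chr2:75659261-75669407, plus strand), a relative of Hnrnpa1 that also binds telomeric repeats, had 72.4, 78.6 and 80.8 CPM in control males and 84.1, 95.5 and 154 in nPM males. The value of 154 was from V23, and without V23 the log2 fold change was 0.31 ± 0.12 (unadjusted p = 0.0310, edgeR). Among the female libraries V19 (control) had 116 CPM and V20 (nPM) 111, against 74.2 to 86.6 in the other 4. V19, V20 and V23 were all from lane 3, and the fourth cortex library of that lane, V24, had 72.4 CPM. The log2 difference in males was 0.17 within lane 2 and 1.09 within lane 3. Hnrnpa3 also has 28 near-identical copies elsewhere in the annotation (at least 95% identity over 200 bases), mostly processed pseudogenes, and the 26 of them in the count table held 884 to 1757 counts in a cortex library beside 2143 to 4772 on Hnrnpa3 itself. Gene and copies summed to 202 plain CPM in V23, 161 in V20 and 152 in V19, against 117 to 137 in the other 9 cortex libraries. The sums were 117, 123 and 124 in control males and 131, 137 and 202 in nPM males, so that these groups did not overlap after summing either. Hnrnpf, which binds G-rich runs, had 107, 109.8 and 124 CPM in control males and 124, 125 and 140.5 in nPM males, and has 8 such copies. Hnrnpa2b1, which sorts RNAs into dendrites, had 315, 322 and 366 CPM in control males and 332, 342 and 373 in nPM males, so that the groups overlapped. Its fitted value of 0.15 compares with 0.06 from the plain group means.

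The difference of the nPM effect between the sexes was tested as an interaction in the 12 cortex libraries. No member passed an adjusted p of 0.05, nor did any gene (0% of 20857). Unadjusted, 8 members had a p under 0.05, beside 9.68% of genes. Srsf5 had the smallest p of the members (male minus female effect 0.41 ± 0.09 on the log2 scale, unadjusted p = 0.000574, adjusted p = 0.303, edgeR). It had 164, 186 and 189 CPM in control males and 185, 187 and 200.3 in nPM males, so that the 3 control female libraries, at 219.7 or more, were the highest of all 12. DESeq2 called this interaction (adjusted p = 0.0298). Srsf11 (0.24 ± 0.07) and Srsf6 (0.21 ± 0.08) followed. Srsf11 had 83.7, 91.7 and 93.2 CPM in control males and 90.7, 91.3 and 95.5 in nPM males. Srsf6 had 125, 125 and 128 CPM in control females, 112, 114 and 119.6 in nPM females, 103, 111 and 117 in control males, and 116, 117 and 119 in nPM males. For these genes too the control females were above the other 9 libraries. Srsf7 (0.18 ± 0.08) and Hnrnpa3 (0.64 ± 0.29) were the other members with a positive interaction, and Hnrnph2 (-0.20 ± 0.08), Hnrnpul1 (-0.19 ± 0.08) and Hnrnpab (-0.22 ± 0.10) had a negative one. Hnrnph2 had 103, 104 and 108 CPM in control females, 113, 115 and 118 in nPM females, 112, 116 and 120.1 in control males and 105, 109 and 117 in nPM males, with the 2 lowest of the 12 values in control females.

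**Figure D3:**
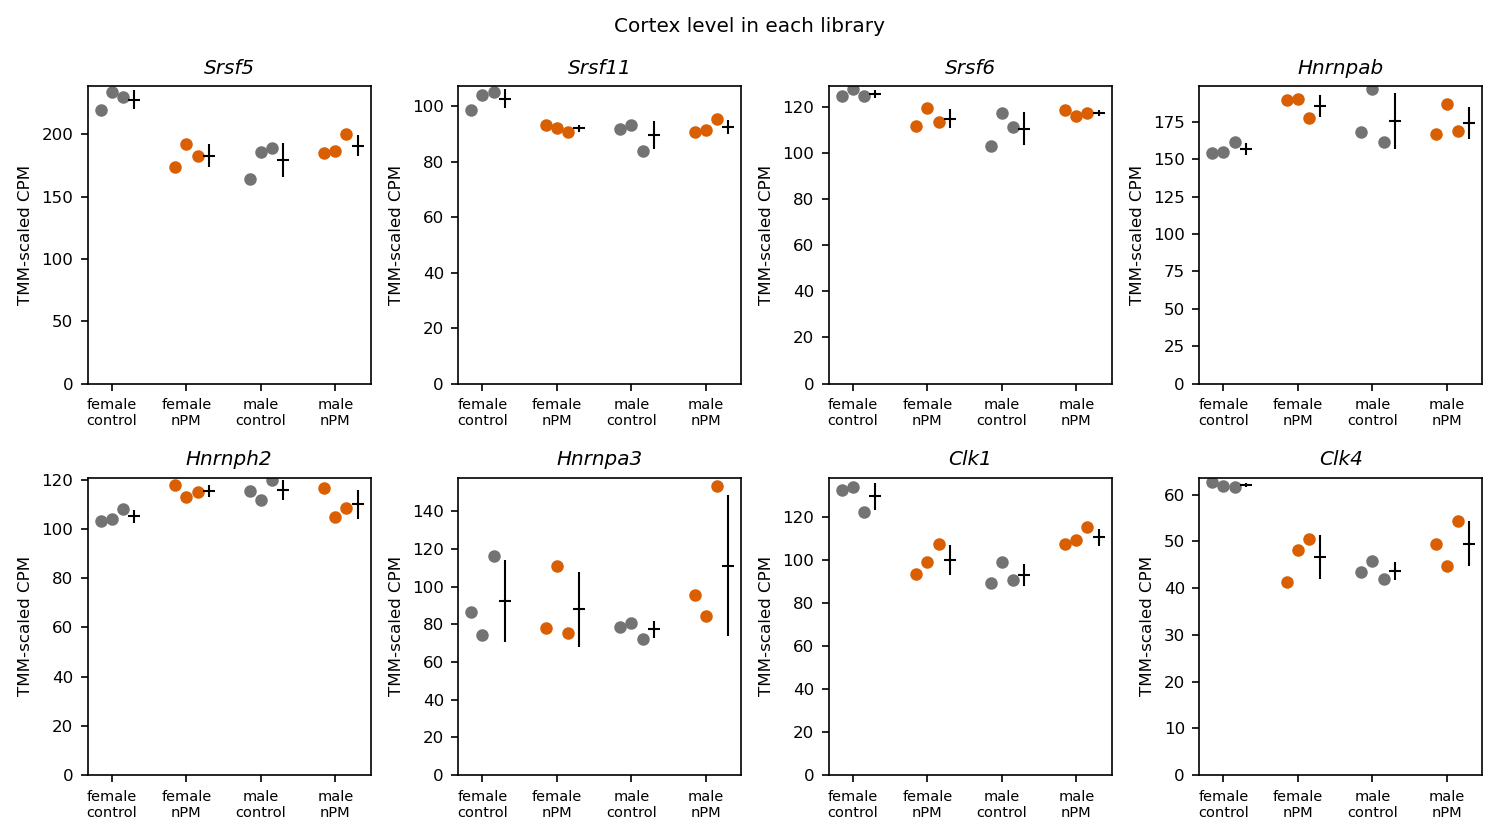
TMM-scaled CPM (y axis, from 0) of 6 members and the kinases Clk1 and Clk4 in each cortex library by sex and exposure, with grey points for control, orange points for nPM, and a bar at the mean ± SD (n = 3). The control female libraries are the highest for Srsf5, Srsf11, Srsf6, Clk1 and Clk4, and V23 is the high point of Hnrnpa3 at 154.

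Genes that act on or beside the family were examined as lists, which were chosen with earlier results of these data known. Calls within them are therefore no independent support, and stand beside the share of all genes given above for female cortex. Of the 10 SR protein kinases and import factors, 2 passed the adjusted threshold in female cortex, both lower in nPM. These were Clk1 (log2 fold change -0.36 ± 0.06, adjusted p = 0.0131, edgeR) and Clk4 (-0.40 ± 0.07, adjusted p = 0.0162, edgeR), which phosphorylate SR proteins in the nucleus. Clk1 had 122, 133 and 134 CPM in control females, 93.7, 99.1 and 107 in nPM females, 89.7, 90.6 and 99.2 in control males and 108, 109 and 115 in nPM males. Clk4 had 61.6, 61.9 and 62.6 CPM in control females, 41.3, 48.1 and 50.5 in nPM females, 41.8, 43.5 and 45.7 in control males and 44.8, 49.4 and 54.3 in nPM males. Control females were again the highest for both kinases. In male cortex the values were 0.31 ± 0.06 for Clk1 and 0.26 ± 0.08 for Clk4 with an adjusted p of 0.962, and the interaction of Clk1 was 0.62 ± 0.09 (unadjusted p = 1.18e-05, adjusted p = 0.123, edgeR).

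Of 20 SR-like and hnRNP-like genes outside the naming rule, 1 was called in female cortex, Srrm2, a scaffold protein of nuclear speckles (-0.31 ± 0.05, adjusted p = 0.0218, edgeR). It had 252 to 273 CPM in control and 196 to 226 in nPM females. Tra2a, which binds GAA-rich exonic enhancers, had 90.8 to 92.1 and 76.1 to 81.3 CPM and missed the threshold (-0.22 ± 0.05, adjusted p = 0.0520, edgeR). The median of this list was -0.06. Of 15 neuronal splicing regulators 1 was called, Nova2 (-0.35 ± 0.06, adjusted p = 0.0186, edgeR), with 39.2 to 48.4 CPM in control and 28.9 to 36.0 in nPM females, and the median was -0.01. Of 25 core spliceosome genes 1 was called, Snrnp70, the U1 particle protein (-0.31 ± 0.06, adjusted p = 0.0332, edgeR), with 138 to 159 and 109 to 131 CPM. Unadjusted, 8 genes of this list were higher and 3 lower in nPM females, and its median was 0.06. Over all genes tested, 1394 were higher and 1955 lower at this level, which is the 15.4% given above. Snrpd1, an Sm ring protein, was the next by p (0.23 ± 0.06, adjusted p = 0.0907, edgeR), with 33.3 to 34.0 and 39.1 to 40.9 CPM. In male cortex 0 genes of the 4 lists were called. The lists share no gene with the 31 members, and Ptbp2 stands in both the hnRNP-like and the neuronal list.

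With both sexes together, no member passed the adjusted threshold for nPM in cortex, where 0.0144% of 20857 genes did. Unadjusted, 1 member had a p under 0.05, beside 5.67% of genes, and no member separated the 6 control from the 6 nPM libraries (0.197% of genes did). That member was Hnrnpab, with a lowest, median and highest CPM of 154, 162 and 197 in control and 167, 182 and 190.2 in nPM libraries (log2 fold change 0.12 ± 0.06, unadjusted p = 0.0445, adjusted p = 0.862, edgeR). Hnrnpa1 followed, with 299, 342 and 371 CPM in control and 329, 356 and 405 in nPM (0.12 ± 0.06), and Srsf12, with 39.9, 41.7 and 44.6 in control and 42.1, 43.6 and 47.6 in nPM (0.08 ± 0.04). The groups overlapped for each of them. Of the 31 members 20 had a value above 0 and 11 below, with a median of 0.02. The log2 fold changes ranged from -0.12 for Srsf5 to 0.23 for Hnrnpa3.

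In blood no member passed the adjusted threshold for nPM, and 0% of 9977 genes did. Unadjusted, 1 member had a p under 0.05, beside 3.11% of genes. Hnrnpa0, which binds AU-rich elements in cytokine transcripts, had a lowest, median and highest CPM of 1.65, 2.41 and 3.15 in 5 control and 1.01, 1.83 and 1.99 in 6 nPM libraries (log2 fold change -0.61 ± 0.26, unadjusted p = 0.0297, adjusted p = 0.9996, edgeR). Hnrnpf had 12.1, 14 and 14.8 CPM in control and 5.99, 10.1 and 15.8 in nPM (-0.41 ± 0.21), and Hnrnph3, 2.67, 2.90 and 3.62 in control and 1.83, 2.44 and 3.31 in nPM (-0.34 ± 0.20). The groups overlapped for all 3 genes. By sequencing lane, the log2 difference of Hnrnpa0 was -0.93 in lane 1 and 0.03 in lane 3, and the fitted value was -0.32 without V1 and -0.36 without V4, both of lane 1. Hnrnpf differed by -0.53 and -0.22 in these lanes, and Hnrnph3 by -0.40 and -0.07. Of 30 members 13 were above 0 and 17 below, and 9 of the 10 Srsf genes were below, with a median of -0.10 beside 0.00 over all genes.

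**Figure D4:**
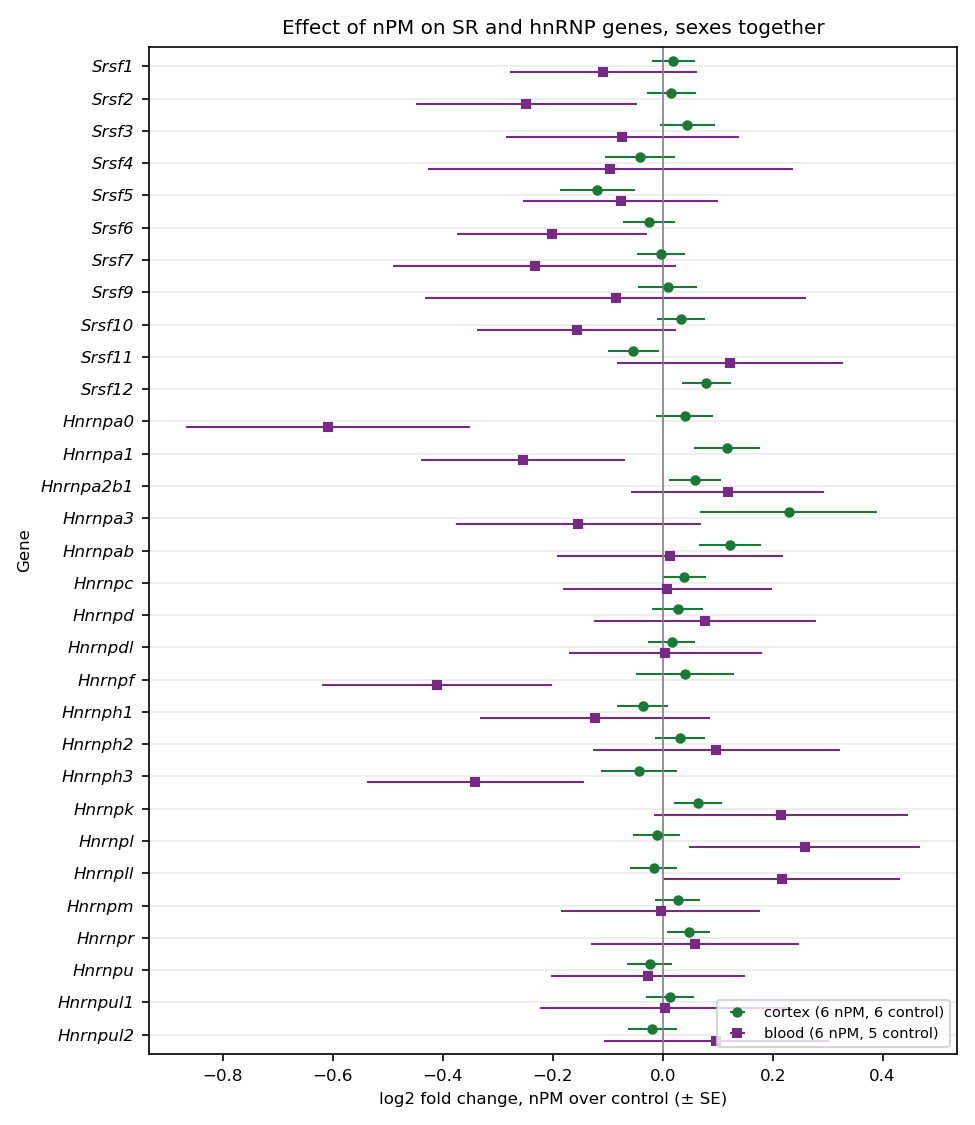
Log2 fold change of nPM over control for each member (y axis) with sexes together, in cortex (circles, 6 and 6 libraries) and blood (squares, 6 and 5 libraries), with bars for the standard error. The cortex values lie between -0.12 and 0.23, and the blood values spread wider, down to -0.61 for Hnrnpa0.

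By sex in blood the calls were again 0 of 30 in females (0.0182% of 11013 genes called) and 0 of 30 in males (0% of 10602). Unadjusted, 0 members had a p under 0.05 in females, beside 8.11% of genes, and 1 in males, beside 3.86%. In females the 3 smallest p-values were those of Hnrnpa1, Hnrnph2 and Hnrnpa0. Hnrnpa1 had 8.60 and 11.7 CPM in the 2 control females and 6.16, 6.46 and 7.83 in nPM females (-0.63 ± 0.30, unadjusted p = 0.0533, edgeR). Hnrnph2 had 4.98 and 9.45 CPM in control and 8.03, 9.71 and 13.6 in nPM females (0.69 ± 0.34), and Hnrnpa0 had 1.65 and 3.15 in control and 1.01, 1.08 and 1.92 in nPM females (-0.86 ± 0.43). Within lane 1 and lane 3 the log2 difference was -0.74 and -0.41 for Hnrnpa1, 1.12 and 0.04 for Hnrnph2, and -1.59 and 0.22 for Hnrnpa0. The libraries did not overlap for 3 of 30 members in females, Hnrnpa1, Hnrnpk and Hnrnpll, beside 19.3% of genes, and 2 control libraries against 3 cannot give an exact permutation p below 0.2. In males Hnrnpul2, a DNA-damage response protein, had 2.75, 3.71 and 5.02 CPM in control and 4.26, 4.39 and 5.28 in nPM libraries (0.64 ± 0.28, unadjusted p = 0.0405, edgeR). Hnrnpd, which promotes decay of AU-rich messengers, had 2.91, 3.06 and 4.32 in control and 3.32, 4.17 and 4.54 in nPM (0.55 ± 0.28), and Hnrnpll had 1.96, 3.09 and 4.67 in control and 2.66, 3.75 and 3.75 in nPM (0.61 ± 0.31). The male groups overlapped for all 3. The fitted values include RNA integrity, and the plain group means gave log2 differences of 0.28 for Hnrnpul2, 0.23 for Hnrnpd and 0.06 for Hnrnpll. For Hnrnpll the difference was 0.18 in lane 1 and -0.22 in lane 3. The libraries did not overlap for 3 of 30 members in males, beside 11% of genes. Of these, Hnrnpa0 (2.19 to 2.67 CPM in control, 1.73 to 1.99 in nPM) and Hnrnph3 (2.67 to 2.90 and 1.83 to 2.45) were lower in nPM libraries, and Hnrnpa2b1 (12.8 to 14.9 and 15.1 to 18.2) was higher, each with an adjusted p of 0.99996 (edgeR).

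The interaction of nPM and sex in blood was called for no member and for 0% of 9977 genes. Unadjusted, 2 members had a p under 0.05, beside 10.7% of genes. Hnrnph2 had the smallest p (male minus female effect -1.01 ± 0.41, adjusted p = 0.452, edgeR), with 7.56, 8.88 and 8.99 CPM in control and 5.95, 7.86 and 8.08 in nPM males. Hnrnph1, its close relative, had 6.77 and 9.60 CPM in control females, 4.88, 5.50 and 6.92 in nPM females, 4.79, 6.16 and 6.98 in control males and 5.07, 6.89 and 8.43 in nPM males (0.86 ± 0.39). Hnrnpa1 came next (0.69 ± 0.35), with 7.46, 8.28 and 9.17 in control and 7.39, 8.05 and 9.50 in nPM males. The female side of each of these values rests on 2 control libraries.

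Between male and female cortex no member was called, beside 0.0336% of 20857 genes, and 1 had an unadjusted p under 0.05, beside 6.09%. This was Srsf5 (male over female -0.16 ± 0.08, unadjusted p = 0.0495, edgeR), whose lowest, median and highest CPM was 174, 206 and 234 in females and 164, 186 and 200.3 in males. Hnrnph3 had 18.2, 21.2 and 22.1 CPM in females and 16.7, 18.1 and 19.8 in males (-0.16 ± 0.08). Hnrnpu, a scaffold protein that ties RNA to chromatin, was the 1 member whose 6 female and 6 male libraries did not overlap, which 0.197% of genes showed. It had 471, 483 and 522 CPM in females and 440.4, 456 and 470.4 in males (-0.09 ± 0.05, unadjusted p = 0.0850, adjusted p = 0.800, edgeR). A two-sided exact permutation test gave p = 0.00216, the smallest that 6 against 6 libraries allow. Any gene whose groups do not overlap gets this value, so it only restates the separation. It was taken from 31 members and is not adjusted.

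In blood no member was called between the sexes, beside 0% of 9977 genes, and 2 had an unadjusted p under 0.05, beside 4.54%. Hnrnpa3 had a lowest, median and highest CPM of 1.87, 2.88 and 5.23 in females and 2.29, 2.39 and 2.64 in males (male over female -0.81 ± 0.26, unadjusted p = 0.00589, adjusted p = 0.998, edgeR). Srsf10, a repressor of splicing when dephosphorylated, had 3.89, 4.61 and 6.38 CPM in females and 3.38, 4.04 and 5.10 in males (-0.50 ± 0.22), and Hnrnpdl had 3.30, 3.50 and 6.21 in females and 3.42, 3.81 and 4.81 in males (-0.40 ± 0.21). The groups overlapped for all 3. The highest Hnrnpa3 values were those of V4 (5.23 CPM) and V1 (4.65 CPM), females of lane 1. Its log2 difference was -0.73 in lane 1 and -0.10 in lane 3, and the fitted value was -0.59 without V4 and -0.73 without V1. For Srsf10 the lanes gave -0.43 and -0.00, and for Hnrnpdl -0.21 and 0.25. The fitted values include RNA integrity, and the plain means of the sexes gave log2 differences of -0.51 for Hnrnpa3, -0.28 for Srsf10 and -0.04 for Hnrnpdl. Of 30 members 27 had a fitted value below 0, with a median of -0.16 beside 0.03 over all genes. By plain means Hnrnpul2 (0.14), Srsf9 (0.04) and Hnrnpa1 (0.03) turned above 0, and none turned the other way. Within lane 3 more of the 30 lay above 0 than below, from -0.85 for Hnrnpul1 to 0.43 for Hnrnpab. The share of all genes below 0 is not given here, so this count is not read as a trait of the members.

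The family differed strongly between tissues in control pups, as most genes did. Of 30 members, 26 were called at an adjusted p of 0.05, 17 higher and 9 lower in cortex, beside 86.2% of 10275 genes (4806 higher and 4055 lower). Unadjusted, 27 were past 0.05, beside 86.7%. These directions hold on the TMM scale, where the median over all genes tested was 0.24 and that of the members 0.38. Lane 3 was the only lane with both tissues. In its libraries alone 8 members were called higher and 11 lower in cortex. The median there was 0.09 for the members and 0.26 over all genes, so the balance of directions was not stable. On plain library totals every one of the 30 members was higher in cortex, with a median of 4.85 beside 4.69 over all genes, so the differences are given relative to other genes and not as amounts per cell. Globin genes took 71.3% to 76.8% of counts in the control blood libraries.

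Hnrnpul1 (chr7:25721165-25754757, minus strand), which acts in the DNA damage response, was the lowest in cortex on this scale. It had 114 to 231 TMM-scaled CPM in 5 blood libraries and 29.7 to 32.4 in 6 cortex libraries (log2 difference -2.52 ± 0.16, adjusted p = 2.09e-10, edgeR). In plain CPM it had 31.6 ± 5.45 in blood and 100.1 ± 3.82 in cortex, the smallest plain ratio of the members at 3.17. Hnrnph3 had 14.1 to 19.02 TMM-scaled CPM in blood and 5.28 to 6.75 in cortex (-1.46 ± 0.10), and Hnrnpc had 104 to 161 in blood and 49.4 to 55.4 in cortex (-1.46 ± 0.12). For all 3 the tissues did not overlap, and on plain totals the direction turned. Hnrnpm (-1.23 ± 0.10), Hnrnpf (-1.06 ± 0.11), Srsf6 (-0.82 ± 0.10), Hnrnpl (-0.82 ± 0.11), Srsf11 (-0.75 ± 0.11) and Hnrnpk (-0.68 ± 0.11) were the other members called lower in cortex.

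At the other end Hnrnpdl had 48.3 to 57.5 TMM-scaled CPM in cortex and 17.9 to 25.5 in blood (1.30 ± 0.12, adjusted p = 2.32e-08, edgeR). Hnrnpab had 47.9 to 59.8 in cortex and 14.9 to 25.0 in blood (1.24 ± 0.13), and Srsf9 had 7.56 to 9.80 in cortex and, in blood, 2.78 to 5.09 (1.24 ± 0.17). The tissues did not overlap for any of these. In plain CPM Hnrnpdl was 174.9 ± 12.9 in cortex and 4.04 ± 1.02 in blood, the largest plain ratio after Srsf12 at 43.3. Hnrnph1 (1.24 ± 0.13), Srsf7 (1.18 ± 0.15), Hnrnpa1 (1.08 ± 0.13) and Hnrnpa0 (1.04 ± 0.13) were also more than 1 log2 unit higher in cortex. Srsf1, the founding SR protein (-0.09 ± 0.10), Srsf4 (0.06 ± 0.12), Srsf5 (-0.25 ± 0.12) and Hnrnph2 (-0.29 ± 0.14) were not called. Within close pairs the directions differed, with Hnrnph1 higher and Hnrnph3 lower in cortex, and Hnrnpul2 (0.62 ± 0.12) higher and Hnrnpul1 lower. The direction of Hnrnph3 and Hnrnpul1 holds on the TMM scale and turns on plain library totals.

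**Figure D5:**
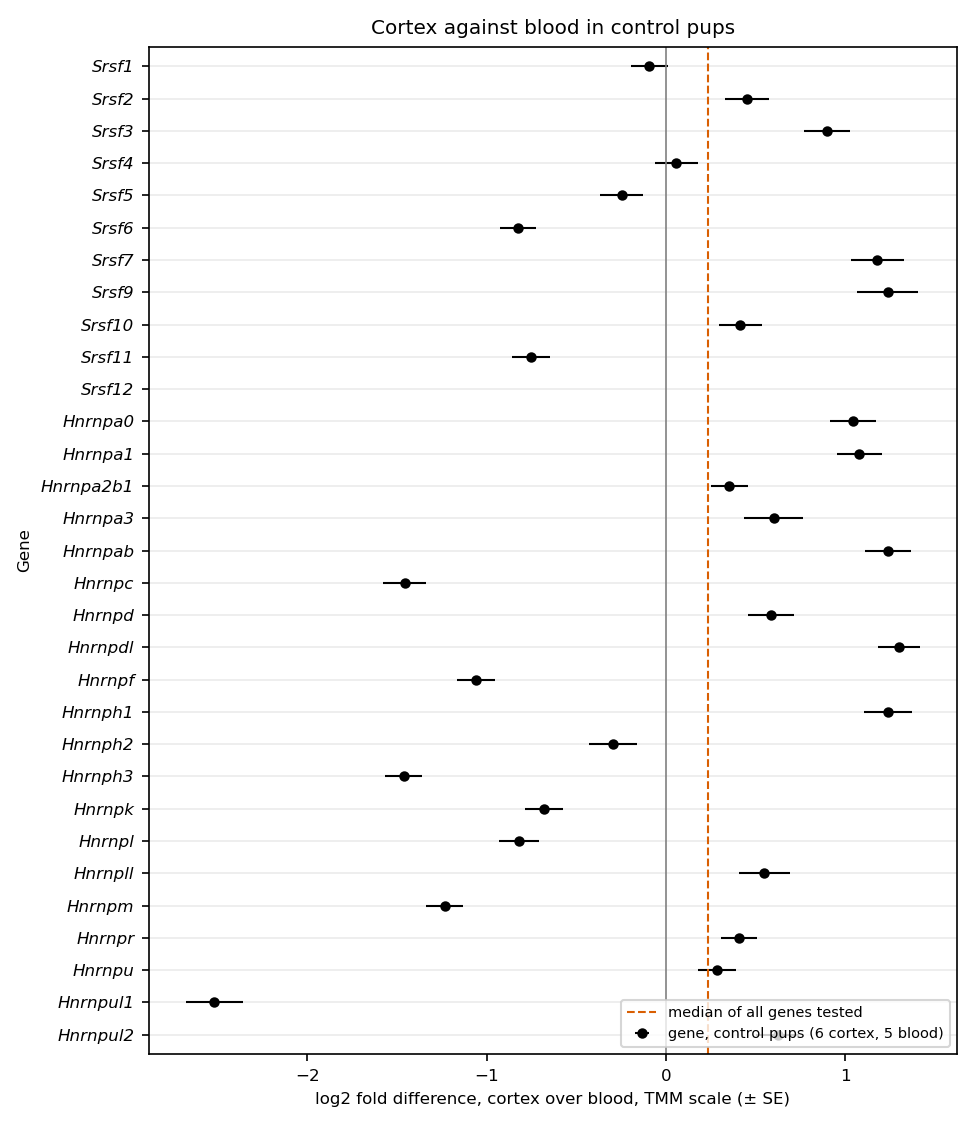
Log2 difference between 6 cortex and 5 blood control libraries on the TMM scale for 30 members (y axis), with bars for the standard error. The dashed line marks the median over all genes tested, 0.24. Hnrnpul1 lies furthest left at -2.52 and Hnrnpdl furthest right at 1.30.

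Of the 20 SR-like and hnRNP-like genes, 9 were called higher and 9 lower in cortex, with a median of 0.11. Of the core spliceosome list, 16 of 25 were called higher and 0 lower, with a median of 0.85, where 4806 genes were called higher and 4055 lower among all tested and the median was 0.24. The kinase and import list had 4 higher and 3 lower of 9 tested. Of 15 neuronal splicing regulators 1 passed the count filter in blood. These list directions hold on the TMM scale. On plain CPM 25 of 25 core spliceosome genes, 19 of 20 SR-like and hnRNP-like genes and 9 of 9 kinase and import genes were higher in cortex, as were 9322 of the 10275 genes tested.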

How the data were processed

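Total RNA from cortex and blood was depleted of ribosomal RNA, sequenced, trimmed (Trimmomatic), aligned to mm10 with HISAT2 and counted per gene with featureCounts 1.5.0-p3 against Gencode M11 by the authors, per the labels and the study's methods. Strandedness of the counting is not given in the sources used here, so 15 members that overlap another gene may share its reads. The authors deposited raw counts for 48709 genes with a gene map, whose exonic lengths were used here and whose pooled RPKM column, the authors' mean, was not used. 

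Counts were fitted in edgeR 4.0.16 (R 4.3.3) by the quasi-likelihood F test with TMM scaling, RNA integrity as covariate, and sex or exposure where both were present, after dropping genes at 0 in any of the fitted libraries. Standard errors are the fold change over the square root of F, and p-values were adjusted over all genes tested (Benjamini-Hochberg, threshold 0.05). Model 1 held exposure and sex, a further model their interaction, and each sex was also fitted alone. limma 3.58.1 (voom), DESeq2 1.42.0, other scalings, filters, covariates and leaving out each library were alternatives. The fit was tested on simulated data. V2 was left out of blood, as the study excluded a blood library of distinct count distribution without naming it. Named genes were those called, the 3 smallest p-values per comparison, the 3 highest and lowest levels per tissue, the 3 largest tissue differences each way, and in the lists those called or the next by p. The members and lists were chosen with earlier results of these data known. Copies were found with megablast in Gencode M21.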

Additional observations from a re-analysis of the deposited data

Results flagged for a closer look

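Among 122 groups of 5 or 6 libraries examined (each member in control and nPM libraries of each tissue), 8 held a library far from the rest, in 7 libraries. Chance alone gives such a library in about 1 in 20 groups. The value given for each is the gap to the nearest library divided by the range of the group.

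Hnrnpa3 accounted for 3 of the 8. In control cortex V19 had 116 CPM and the next library 86.6 (0.678). In control blood V4 had 5.23 CPM and the next 2.73 (0.869), and in nPM blood V1 had 4.65 and the next 2.88 (0.636). Hnrnpab was high in V16 in control cortex, with 197 CPM and the next 168 (0.664). Hnrnpul1 was high in V20 in nPM cortex, with 111 CPM and the next 102 (0.629). In blood Srsf11 was high in the control V8, with 11.4 and the next 9.17 CPM (0.730), Hnrnpdl was high in the nPM library V1, with 6.21 and the next 3.93 (0.785), and Hnrnpll was low in the nPM library V21, with 2.66 and the next 3.75 (0.788).

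V2, the control female blood library outside the comparisons, had 0.300% of its counts on the members, against 0.0244% to 0.0401% in the other 11 blood libraries. All 31 members were higher there in plain CPM than in any other blood library. The same count over all genes is not given here, so this count is not read as a trait of the members. Globin genes took 50.1% of its counts, against 66.2% to 76.8%, and it had 22461 genes detected, against 13254 to 17273. The fold over the median of the other libraries ranged from 2.26 for Hnrnpul1 to 36.6 for Hnrnpab, and Srsf12 had 17 counts. The dividing-cell markers summed to 640 CPM in V2 and 122 to 244 in the others, the neuronal list to 48.5 and 2.05 to 13.6, and the neutrophil list to 31.1 and 59.4 to 148. The cause was not tested.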

How the results depend on the processing

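The count of members called was 0 and stayed 0 under every alternative run for nPM in blood, sex in cortex and blood, the interaction in blood and nPM in male blood. For nPM in cortex it was 1 (Hnrnpa3) with genes counted in any library, a filter that tested 32461 genes. For the cortex interaction it was 1 with DESeq2 (Srsf5) and 2 with genes counted in any library (Srsf5 and Hnrnpa3). In male cortex it was 1 with DESeq2 and 1 with genes counted in any library, Hnrnpa3 in both. In female cortex it was 0 in the fit of both sexes, chosen after seeing the data, and 0 to 2 when each library was left out. Over all genes, 241 were called in female cortex, 445 with DESeq2 and 1280 with genes counted in any library, where 3 members were called, Hnrnpa1 being the third. In female blood it was 0 to 2 when each library was left out, with Hnrnpa0 and Srsf4 called without V18, and that fit had 2 libraries per group. The cause of these changes was not tested. Between tissues, all 9 members called lower in cortex were higher there on library totals, with log2 differences from 2.01 for Hnrnpul1 to 3.79 and Hnrnph3 and Hnrnpc at 3.00 and 3.04, as were the 3 uncalled members below 0 (Srsf1, Srsf5 and Hnrnph2). On totals without globin genes 8 of the 9 turned, all but Hnrnpul1, by 0.72 for Hnrnph3, 0.76 for Hnrnpc and up to 1.52. Single members called between tissues also turned to values near 0, Hnrnpk (0.04) with a minimum of 10 counts, Hnrnpu (-0.01) with filterByExpr and Hnrnpa2b1 (-0.00) in lane 3 alone. The tissue count ranged from 19 (V2 included, or lane 3 alone) to 30 (library totals, all higher in cortex). With V2 included 10 were called higher and 9 lower in cortex, and in lane 3 alone 8 and 11. With RLE scaling 12 were called higher and 12 lower in cortex, with DESeq2 13 and 12, and with a minimum of 10 counts 20 and 5. No paired analysis was possible because the labels give no replicate numbers shared between groups. The members had a median coefficient of variation of 21.5% in blood against 5.30% in cortex, and counts were lower in blood. The part of the counts in this spread was not tested.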
